A study of Bos taurus with 2 samples.

Results

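CpG-poor windows with little methylation were examined in the sperm methylomes of monozygotic twin bulls of the Holstein breed. CpG sites are cytosines followed by guanine, where vertebrate DNA carries nearly all of its methylation. The genome was divided into 1 kb windows, and an autosomal window was taken when it held 4 to 10 listed CpG sites and at least 40 summed reads in each library, when its methylation level was under 20% in both bulls, and when its mean coverage was under 100 reads per CpG. Windows within 2000 bp of a CpG-rich stretch, defined as a run of 20 or more CpG sites with gaps of at most 50 bp, were left out. These limits gave 2950 windows, called members below, of 2484608 autosomal windows with a listed CpG. They made up 0.244% of the 1211002 windows that met every limit but the level, which are called eligible windows below. The measured levels of both libraries chose the members, so that these levels, and any calls made from them between the bulls, are given as a description that supports nothing.

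The samples were 1 sperm library of Bull1 and 1 of Bull2, profiled by whole-genome bisulfite sequencing, in which unmethylated cytosines are converted and read as T while methylated cytosines are still read as C. Both animals were of the same age, their semen was collected within the same week, and the study compared them because they differed in male fertility. With 1 library per bull, every test below compares libraries and not animals, and no difference has a replicate check. Markers of sperm were not checked, because an annotation of the genome build of the files, UMD3.1, was not used here, and gene names and base sequences of the members are therefore not given.

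Most of the mammalian sperm genome is methylated. The best known exceptions are CpG islands, dense clusters of CpG sites that often lie at promoters and are kept free of methylation in most cell types. Outside islands, CpG sites are sparse and usually methylated, while some repeats and satellite DNA have less methylation in germ cells than in somatic tissue. Unmethylated stretches of few CpG sites outside islands can mark distal regulatory DNA. The limits used here remove windows in and next to dense CpG runs and keep the sparse ones.

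Both libraries listed the same 27203217 CpG sites, with 544424736 reads in Bull1 and 499287038 in Bull2, and the median site had 17 and 15 reads. The median member had 127 reads in Bull1 and 111 in Bull2. Per CpG site, the median member had 18.4 reads in Bull2, against 20.75 in eligible windows. The intervals given below are exact Clopper-Pearson at 95% and describe counting error only. Reads that span more than 1 site enter the sums repeatedly, so that these intervals may be too narrow even for that.

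Low methylation described these windows better than absence of methylation. Over all members, the pooled level was 13.75% (interval 13.64 to 13.85) in Bull1 and 13.26% (13.15 to 13.37) in Bull2. Eligible windows stood at 84.85% and 80.53%. The median member had 14.29% in Bull1, with quartiles of 10.72% and 17.11%. In Bull2 the median was 13.6%, with quartiles of 9.867% and 16.6%. Only 139 members, or 4.71%, were under 5% in both libraries, and 2005, or 68.0%, were at 10% or more in both. No methylated read was seen in either library in 34 members, 19 of which held 4 CpG sites, the fewest allowed. The name unmethylated therefore fitted few of the members, and they are called low-methylation windows here.

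**Figure D1:**
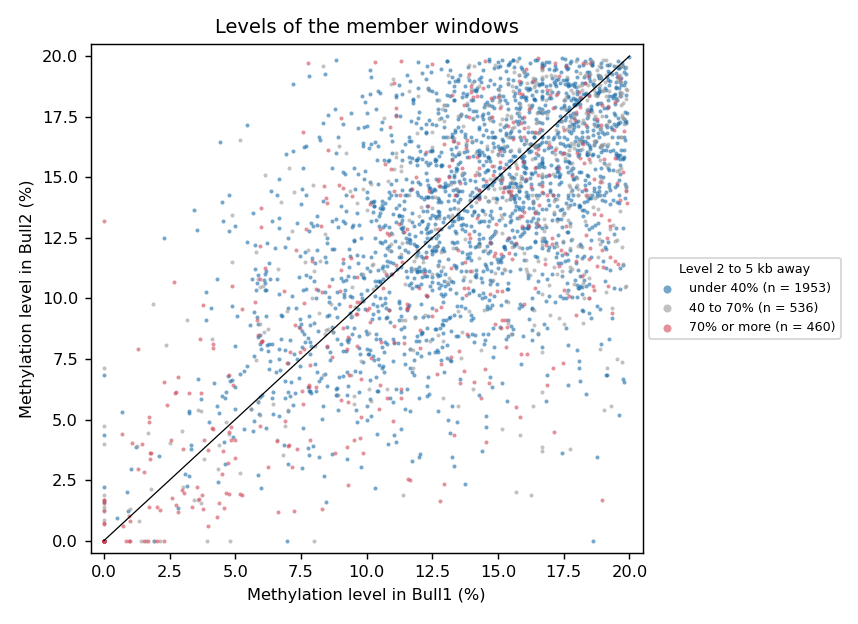
Methylation level of each member in Bull1 (x axis, %) and in Bull2 (y axis, %), 1 point per 1 kb window, coloured by the pooled level found 2 to 5 kb away, with the line of equal levels. Points crowd towards 20%, and only 139 members lie under 5% in both libraries.

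The limit of 20% did not coincide with a gap in the levels. Of the members, 1185 had a pooled level of 15 to 20% and 1145 one of 10 to 15%, while 449 lay at 5 to 10% and 171 under 5%. Just inside the limit stood chr6:6606001-6607000, with 159 methylated of 796 reads (19.97%) in Bull1 and 134 of 671 (19.97%) in Bull2. Then came chr14:12001-13000 (15.8% and 19.94%) and chr18:8371001-8372000 (16.52% and 19.92%). Just outside, with 1 library exactly at the limit, stood chr2:2165001-2166000, chr2:10026001-10027000 and chr21:3232001-3233000. In the first of these, 24 of 120 reads were methylated in Bull1 and 20 of 103 (19.42%) in Bull2. The window chr6:6606001-6607000 was also the deepest member over both libraries, with 99.5 and 83.9 reads per CpG. The next ones by reads per CpG over both libraries were chr8:14361001-14362000, with 96.0 and 85.8 (levels of 12.08% and 13.75%), and chr1:91216001-91217000, with 99.0 and 80.3 (11.45% and 10.58%). The intervals of the windows inside and outside the limit overlapped, and eligible windows were more numerous above the limit than below it, with 6897 at 20 to 30%. Raising the limit to 30% took the number of windows from 2950 to 8825, and lowering it to 10% left 417.

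The members fell into classes by what lay around them. The surroundings of a window were taken as the pooled level of both libraries in the 3 windows that lie 2 to 5 kb away on each side, at any CpG number. They were under 40% in 1953 members (66.2%), at 40 to 70% in 536 (18.2%) and at 70% or more in 460 (15.6%), and 1 member had no level there. Of eligible windows, 71.7% had surroundings of 80 to 90%. In members the distribution had 2 peaks, with 29.2% of them at 20 to 30% and 10.5% at 80 to 90%. Members of the first kind are called embedded below (surroundings under 40%), and those of the last kind isolated (70% or more). These class limits were set after the distribution was seen.

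**Figure D2:**
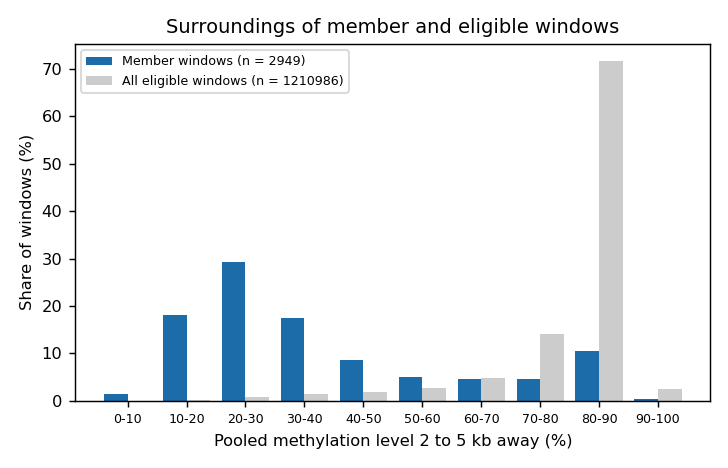
Share of windows (y axis, %) by the pooled methylation level 2 to 5 kb away (x axis, %, in steps of 10), for the members with such a level (blue) and eligible windows (grey). Members peak at 20 to 30% and again, lower, at 80 to 90%, where 71.7% of eligible windows lie.

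Embedded members lay in broad, partly methylated domains. The rule itself makes a member lower than most windows near it. The 44 members with surroundings under 10% stood at 10.5% in Bull1 and 10.9% in Bull2, with median surroundings of 8.35%. They were picked by these low surroundings, so that nothing is read from this order. Next to all embedded members, 1 window away, the pooled level was 20.52% on one side and 20.64% on the other in Bull1, and 20.32% and 20.18% in Bull2. At 5 windows it was 25.17% and 25.86% in Bull1. It rose slowly from there, to 34.71% and 36.66% at 20 windows and to 41.72% and 46.89% at 100 windows, where eligible windows stood at 80.63% and 80.68%. The values at 3 to 5 windows restate the definition of the class, while those at 20 and 100 windows were not part of it.

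Isolated members were, in part by their definition, narrow dips in methylated DNA. In Bull1 the pooled level was 11.35% in the window, 52.49% and 52.62% in the windows next to it, 79.48% and 77.39% at 2 windows and 83.82% and 85.68% at 5 windows. Bull2 gave 10.59% in the window and 79.7% and 81.77% at 5 windows. CpG sites were denser right beside these members, with means of 9.03 and 10.1 in the adjacent windows and 6.98 in the members. Beside embedded members the means were 7.36 and 7.29, and beside eligible windows 7.59 on both sides. The rule keeps the member itself low, and surroundings of at least 70% defined this class, so that a steep climb between them is forced. Nothing is read from the climb itself. Only the levels in the adjacent windows and at 2 windows were not set by the definition, and they describe where the climb took place.

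**Figure D3:**
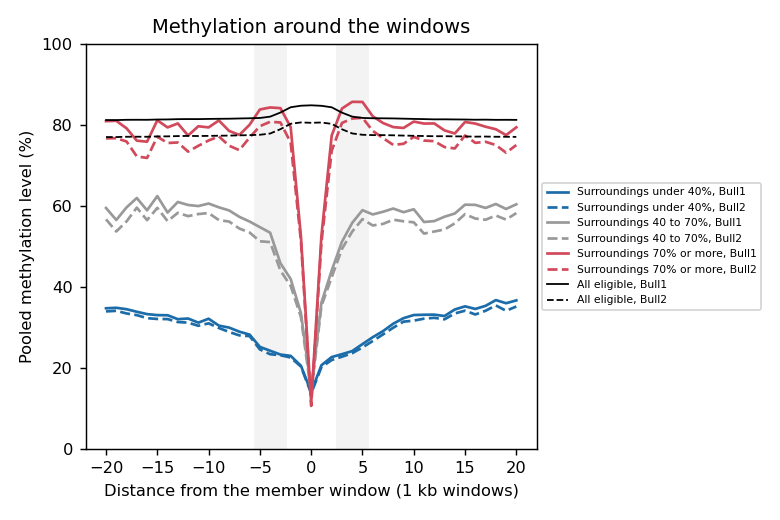
Pooled methylation level (y axis, %) by distance from the member in 1 kb windows (x axis), for members grouped by surroundings and for eligible windows, with Bull1 as full and Bull2 as dashed lines. Grey bands mark the 2 to 5 kb used for the grouping, and the isolated class (red) climbs to over 70% within 2 windows while the embedded class (blue) stays under 40% out to 20 windows.

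The classes also differed at single sites, for which at least 5 reads in both libraries were required. Of 17956 such sites in members, 76.3% had a level under 20% and 27.0% one under 5%, while 2.09% had 50% or more. In embedded members 19.6% of sites were under 5%, against 54.2% in isolated members. At the other end, 0.256% of embedded and 15.4% of isolated members held a site at 80% or more. Of the embedded members, 1856 of 1953 held no site at 50% or more, as did 314 of 460 isolated ones (68.3%). The limit of 20% on the level leaves little room for such sites, so that their small number is no result. The longest stretch of successive listed sites under 50% that touched a member, in which sites of any depth were counted and those without reads as low, had a median length of 5.59 kb with 39 CpG sites in embedded and 0.869 kb with 11 CpG sites in isolated members. The classes were defined by the level 2 to 5 kb away, which limits the stretch in one and extends it in the other, so that nothing is read from this order.

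Members near 0 were more often isolated. Of the isolated members 76 (16.5%) were under 5% in both libraries, of the embedded ones 26 (1.33%). Members with a pooled level under 5% had median surroundings of 72.1%, and those at 5 to 10, 10 to 15 and 15 to 20% had 27.7, 28.7 and 31.2%. Among the isolated members under 5%, the one with the most reads was chr1:142503001-142504000, named after the values had been seen. It held 9 CpG sites, with 10 methylated of 365 reads (2.74%) in Bull1 and 6 of 404 (1.485%) in Bull2, and its surroundings were at 92.14% and 88.74%. Its sites ranged from 0 to 13.8% in Bull1 and from 0 to 7.89% in Bull2. The highest value in both bulls was that of the last site of the window, with 4 of 29 and 3 of 38 reads. Its stretch of sites under 50% ran over 1.934 kb and 15 CpG sites. The next ones by reads were chr1:32593001-32594000, with 3 of 285 reads (1.053%) and 8 of 199 (4.02%), and chr15:760001-761000, with 4 of 225 (1.778%) and 9 of 248 (3.629%). These low stretches were longer than the median of isolated members, at 1.625 kb with 32 CpG sites and 2.413 kb with 33. The windows themselves held only 10 and 9 CpG sites. Most sites of these 2 stretches thus lay outside the members, in low DNA with denser CpG sites that the limit on dense runs did not remove.

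The lowest levels of all members with at least 100 reads in both libraries came from windows in which nearly every site lacked a methylated read. In chr16:21449001-21450000 all 4 sites did, with 0 of 145 reads in Bull1 and 0 of 147 in Bull2. The upper ends of the intervals were 2.512% and 2.478%. It was followed by chr20:45350001-45351000, with 0 of 105 and 0 of 137 reads at 7 sites. Next came chr4:44924001-44925000, with 0 of 110 and 0 of 109 reads at 4 sites. A single methylated read was seen, in Bull2, in chr26:44807001-44808000 (0 of 107 and 1 of 142 reads) and in chr11:35850001-35851000 (0 of 112 and 1 of 119). Around the first of these windows, 40 of 48 sites within 3 kb were at 80% or more, and 2 sites among them again had no methylated read. The sites at 80% or more were 23 of 33 around chr20:45350001-45351000, 24 of 36 around chr4:44924001-44925000 and 24 of 32 around chr11:35850001-35851000, with 7, 4 and 5 sites at 0. Around chr26:44807001-44808000 they were the smaller part, with 20 of 67 sites at 80% or more and 17 at 0.

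**Figure D4:**
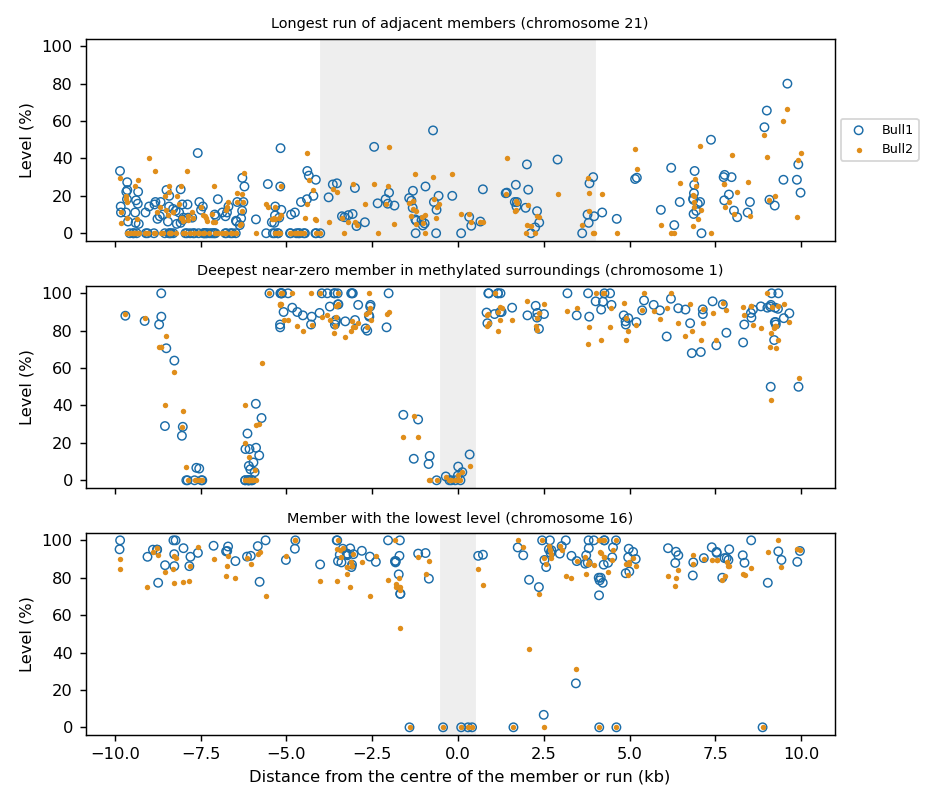
Level of each CpG site with at least 5 reads (y axis, %) by distance from the centre (x axis, kb) in Bull1 (open circles) and Bull2 (filled points), for the longest run of members, the isolated member on chromosome 1 and the lowest member on chromosome 16, with the member or run shaded. The run on chromosome 21 lies in a broad low region, the chromosome 1 member in a continuous dip, and the chromosome 16 member consists of 4 sites at 0 between sites of mostly 80% or more.

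Sites without a methylated read in either library (at least 5 reads in each) made up 15.3% of the sites in members, 1.42% in other eligible windows and 32.5% in the dense CpG runs. In embedded members they were 8.68% of sites and in isolated members 36.6%. A converted cytosine and a T in the DNA of the bulls themselves give the same read, and the files used here do not tell them apart. With these sites left out of the sums, 2332 members (79.1%) were still under 20% in both libraries, namely 1714 of the 1953 embedded ones (87.8%) and 274 of the 460 isolated ones (59.6%). No site was left in 21 members, 12 of them isolated and 3 embedded, which are not among those still under 20%. What these sites are was not tested.

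Members gathered at the listed starts of chromosomes. The first Mb of the autosomes held 926 members, or 31.4% of all, among 12453 eligible windows, so that 7.44% of eligible windows there were members. The share was 12.4% in the first 0.2 Mb, 9.99% at 0.2 to 0.5 Mb, 4.29% at 0.5 to 1 Mb, 1.42% at 1 to 2 Mb and 0.13% beyond 10 Mb. In the last Mb of each autosome, counted from the last listed CpG, it was 0.494%, with 22 members. Of these, 18 lay in the last 0.2 Mb, where the share was 1.43%, against 0.231% at 0.2 to 0.5 Mb and 0.0529% at 0.5 to 1 Mb from the end. Cattle autosomes are acrocentric, with the centromere near one end. Eligible windows in the first 0.2 Mb had pooled levels of 53.7% in Bull1 and 51.8% in Bull2, against 85.6% and 81.2% beyond 10 Mb, with similar coverage (22.6 and 23.3 reads per CpG in Bull1). Of the embedded members 863 (44.2%) lay in the first Mb, and of the isolated ones 6 (1.3%).

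The gathering was not shared by all autosomes. Chromosome 23 had the highest share of members among eligible windows, with 215 members (1.01%). In its first Mb, 132 of 545 eligible windows (24.2%) were members. Chromosome 19 came close, with 110 of 469 (23.5%) in its first Mb and 192 members in all. Chromosome 11 had the lowest share, with 26 members (0.0516%) and none in its first Mb, which also held none on chromosomes 20, 25 and 27. On chromosome 25 the first Mb had only 40 eligible windows, against 330, 336 and 329 on chromosomes 11, 20 and 27, so that its 0 says little. Beyond the first Mb the shares ran from 0.0519% on chromosome 11 to 0.483% on chromosome 18, with 0.444% on chromosome 7. The 2 autosomes with the most members at their starts, 23 and 19, had 0.402% and 0.399% beyond them. Part of these lay close by, with 27 and 25 members at 1 to 2 Mb. Other autosomes varied. Chromosomes 15 and 21 had 15.8% and 12.9% in the first Mb and 0.361% and 0.375% beyond it. Chromosomes 26 and 14 had 13.4% and 11.2% in the first Mb but only 0.0923% and 0.0644% beyond it.

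**Figure D5:**
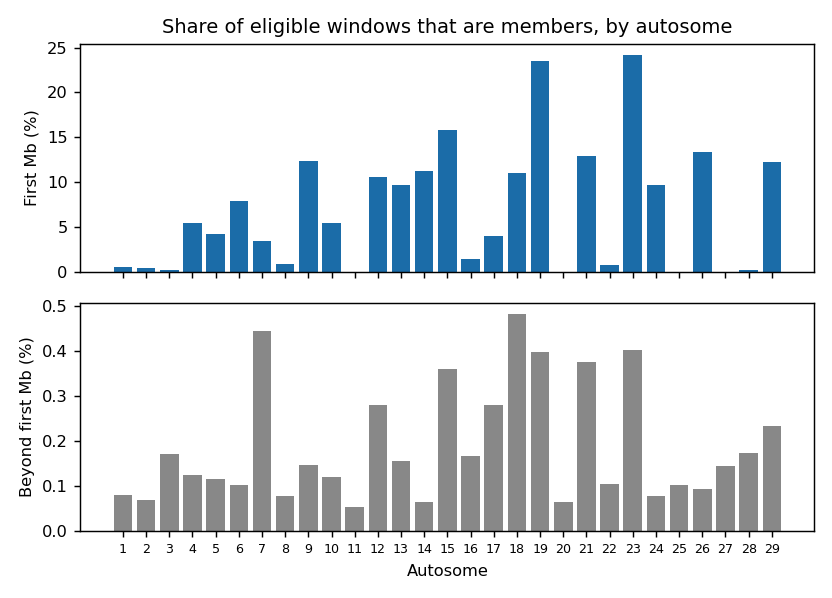
Share of eligible windows that were members (y axis, %) by autosome (x axis), in the first Mb (top) and beyond it (bottom), on different scales. Chromosomes 19 and 23 reach 23.5% and 24.2% in the first Mb, and the shares beyond it stay under 0.5%. Chromosomes 11, 20, 25 and 27 are at 0 in the first Mb, where chromosome 25 has only 40 eligible windows.

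Members were also clustered within chromosomes. Of 2528 autosomal blocks of 1 Mb, 698 held a member, and the 10 blocks with the most held 757 members (25.7%). Of these 10 blocks 8 were first blocks of a chromosome. The others were chr7 from 11 to 12 Mb, with 74 members of 532 eligible windows, and chr21 from 1 to 2 Mb, with 57 of 414. Another member lay within 10 windows of 1826 members (61.9%), while 320 (10.8%) had none within 1000 windows. Joined over gaps of at most 10 kb, the largest cluster was chr19:333001-391000, with 25 members of 40 eligible windows. It was followed by chr23:666001-740000, with 22 of 36. In chr29:471001-502000, 18 of 20 eligible windows were members.

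Of the members, 913 (30.9%) lay directly next to another one, and 2037 stood alone. Adjacent members formed 282 runs of 2 windows, 72 of 3, 22 of 4, 5 of 5, 2 of 6 and 1 of 8. The longest run was chr21:60706001-60714000, 8 windows with 59 CpG sites, with 217 methylated of 1466 reads (14.8%) in Bull1 and 153 of 1180 (12.97%) in Bull2. The surroundings of its windows had a mean of 13.74%, which takes in other windows of the same run and is thus partly fixed by the rule. Outside the run but within 10 kb of its centre, the median site had 11.1% in Bull1 and 8.33% in Bull2. None of the sites inside the run reached 80% in either library. Then came both runs of 6 windows. The first was chr8:74311001-74317000, with 53 of 412 reads (12.86%) and 43 of 406 (10.59%). The surroundings of its windows, which again take in windows of the run, had a mean of 49.95%. The other, chr9:350001-356000, had 93 of 825 (11.27%) and 94 of 747 (12.58%). Of the 5 runs of 5 windows, those with the lowest pooled level lay in the first Mb of chromosome 19, at chr19:496001-501000 (9.211% and 8.877%) and chr19:357001-362000 (11.22% and 8.923%). The intervals of the bulls overlapped in all of these runs, and they were farthest apart in chr19:357001-362000, at 9.52 to 13.1% and 7.534 to 10.47%.

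The X chromosome, which the autosomal limits leave out and which a bull has in a single copy, held more such windows for its size. Of 62458 eligible windows there, 1167 (1.87%) met the same limits, against 0.244% on autosomes. Their pooled levels were 13.45% and 13.26%, and their median surroundings were 27.2% in Bull1 and 26.6% in Bull2. Median coverage was 12.83 and 11.5 reads per CpG, lower than on autosomes, and the part of this in the share was not tested. None lay in the first Mb of X, unlike on most autosomes.

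The share of members varied little with the number of CpG sites. Of eligible windows, members were 0.269% at 4 CpG sites, 0.277% at 5 and 0.208% at 10. By distance from dense CpG runs the share was 0.293% at 2 to 5 kb, 0.272% at 50 to 100 kb and 0.199% beyond 100 kb. To look for repeated elements without a genome sequence, the distances between any 4 listed CpG sites in a row were compared. The most common pattern, gaps of 8, 6 and 10 bp, occurred in 11 members (0.373%) and in 0.294% of eligible windows. Gaps of 10, 6 and 8 bp occurred in 10 members, and gaps of 6, 10 and 20 bp in 6 (0.203%, against 0.0746% of eligible windows). In all, 200 members (6.78%) shared a pattern with another one, and no single spacing was common to many. Only exact matches were counted and no such share was taken for eligible windows, so that the presence of repeated elements was not tested.

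The pooled level of the members was 0.4852 points higher in Bull1 than in Bull2, against 4.315 points in eligible windows. The difference had a median of 0.3684 points, with quartiles of -1.857 and 2.894, and 1608 members (54.5%) were higher in Bull1, against 80.5% of eligible windows. Since the limit on the level keeps differences under 20 points and low levels leave little room, the difference was also taken as a ratio. Bull1 stood at 1.04, 1.06, 1.06 and 1.02 times Bull2 in members of 0 to 5, 5 to 10, 10 to 15 and 15 to 20%, and at 1.06 times in eligible windows of 80 to 90%. The rule cut off the same levels from which the ratios in members were taken, and nothing is read from them.

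By Fisher's exact test on the summed reads of each window, two-sided, with Benjamini-Hochberg adjustment over all eligible windows, 57601 eligible windows (4.76%) differed between the libraries at a false discovery rate of 0.05, 4.71% higher in Bull1 and 0.0495% higher in Bull2. Among members 5 (0.169%) did, 3 higher in Bull1 and 2 higher in Bull2, and nothing is read from this count because the rule used the same contrast. Reads that span more than 1 site are counted repeatedly in this test as well, so that its p-values may be too small.

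The called members are listed by their reads only. In chr7:54884001-54885000, 33 of 180 reads (18.33%) were methylated in Bull1 and 14 of 231 (6.061%) in Bull2, and its surroundings were at 22.03% and 18.99%. Both others that were higher in Bull1 had few methylated reads in Bull2, with 13 of 80 against 2 of 107 in chr24:453001-454000 and 11 of 58 against 1 of 60 in chr8:74314001-74315000. The latter window belongs to a run of 6 members described above. Higher in Bull2 were chr18:55684001-55685000, with 8 of 154 reads (5.195%) in Bull1 and 25 of 151 (16.56%) in Bull2, and chr3:32493001-32494000, with 8 of 147 (5.442%) and 24 of 140 (17.14%). Among members of at least 100 reads in both libraries, the 5 largest differences in favour of Bull1 ran from 9.943 to 12.27 points, and the 5 largest in favour of Bull2 from -9.031 to -11.7 points. None of the 5 called members moved between the absence of methylation and a high level, which the rule does not allow.

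In all windows 2 to 5 kb from the members, whatever their level or CpG number, the pooled level was 1.2 points higher in Bull1. Windows 2 to 5 kb from a member that met every limit but the level, 5821 in number, do not include members and are thus more methylated by choice. They had 50.9% in Bull1 and 49.17% in Bull2, and 64.3% of them were higher in Bull1. Of these, 126 (2.16%) were called, 111 higher in Bull1 and 15 in Bull2, against 4.76% of all eligible windows. The share called varied with the level, however. It was 1.78% in eligible windows of 40 to 50%, 1.83% in those of 50 to 60% and 5.96% in those of 80 to 90%. The windows near members mix low and high levels, and 50.9% is only their pooled value. Whether 2.16% is low or high for their levels was therefore not tested. The median difference of the surroundings was 0.554 points for embedded, 2.4 points for members of 40 to 70% and 3.87 points for isolated members. The medians thus rose with the methylation around the member. By their own level, which is another measure, eligible windows had a pooled difference of 0.717 points at 20 to 30%, 2.1 at 40 to 50%, 4.78 at 80 to 90% and 3.46 at 90 to 100%. Eligible windows with surroundings of 20 to 30% had median surroundings of 26.7% in Bull1 and 24.9% in Bull2. Members of that class had 24.8% and 24.3%, which lay closer together. At 80 to 90% the values were 88.5% and 84.0% in eligible windows and 87.5% and 83.5% in members. Surroundings of members can include other members, which the rule picked as low in both libraries, and the cause of this gap was not tested.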

How the data were processed

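Sperm DNA of Bull1 and Bull2, 1 library each, was analysed by whole-genome bisulfite sequencing. According to the methods and the submitters' processing notes, the authors trimmed reads with Trim Galore 0.4.0, checked them with FastQC 0.11.2, aligned them to UMD3.1 with Bismark and Bowtie2 (listed as 0.14.5), and removed duplicates. The deposited files give for every CpG the methylation level as a fraction, together with the deposited counts of reads that were methylated and unmethylated there and of all reads, without normalization. Whether strands were summed, and whether positions count from 0 or 1, is not stated in the sources used here.

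From these counts, levels were summed per 1 kb window with Python 3.11.15, numpy 2.4.6, pandas 2.3.3 and numba 0.67.0. Fisher's exact test per window was tested on simulated data and adjusted over the eligible windows. Intervals used scipy 1.17.1. Windows of 100 or more reads per CpG were left out of surroundings and profiles, a choice made after the profiles were seen. Named windows were the 5 longest runs, the 5 lowest members of at least 100 reads, the largest differences, the deepest members, those at the limit of the level, the autosomes of highest and lowest share, and up to 3 spacing patterns. Members and lists were chosen with earlier results of these data known. Other depth, level, distance, coverage and window settings were tried.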

Additional observations from a re-analysis of the deposited data

How the results depend on the processing

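No paired analysis was possible because the groups hold 1 library each. The number of members was within 1.5 times of 2950 except at a level limit of 10% (417) or 30% (8825). The pooled difference between the bulls kept its sign in all 12 alternatives and ran from 0.2643 points to 0.5768. The lowest value, at a level under 10%, has a 95% counting error of plus or minus 0.2857 and so spans 0. Members called by Fisher's exact test numbered 5 of 2950, beside 4.76% of eligible windows, against 0 of 417 at a level under 10% (5 or 1.2% at an unadjusted p under 0.05, against 21.4% of eligible windows), 33 of 8825 at a level under 30%, 16 of 3012 with members chosen by unweighted site means, 2 of 2916 with windows shifted by 500 bp, 3 of 1971 with runs of 10 or more CpGs and gaps of up to 100 bp, 3 of 2924 with Bull1 thinned to the depth of Bull2, 0 of 2950 at a false discovery rate of 0.01 (105 or 3.56% at an unadjusted p under 0.05, against the same 21.4%), and 3 of 2208 without sites that lack a methylated read, and the cause of these changes was not tested. Leaving out such sites, and the first Mb, were chosen after seeing the data. The share of all eligible windows called after adjustment is not given where the setting changed these windows or the false discovery rate. At an unadjusted p under 0.05 in Fisher's test, members stood at 3.09% and eligible windows at 21.4% with shifted windows. The shares were 3.2% and 21.3% with runs of 10 or more CpGs, and 3.01% and 20.6% with Bull1 thinned. Without sites that lack a methylated read they were 3.8% and 21.8%. Without the first Mb, 2024 members remained, 53.85% of them embedded and 21.69% next to another member, against 66.2% and 30.95%. At a level under 10%, 46.52% were embedded and 6.715% lay next to another member, against 45.92% next to another at a level under 30%, so that the share of adjacent members depends on the level limit. With a median of 127 and 111 reads, intervals of a single member span several points, and counting error limits statements on single windows.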
